A study of Mus musculus with 2 samples.

Results

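MHC class II molecules show peptides from internalised proteins to CD4 T cells, and 9 genes of that pathway were followed here, chosen by symbol: H2-Aa, H2-Ab1, H2-Eb1, H2-DMa, H2-DMb1, H2-DMb2, Cd74, Ciita and Ifi30. All 9 were among the 16614 genes listed. The cells were bone marrow macrophages of C57BL/6 mice, grown in M-CSF, the growth factor of the macrophage lineage, for 3 days. They were then given RANKL, the cytokine that turns macrophages into bone-resorbing osteoclasts, for 2 days. The Foxo3 KO library came from cells lacking the forkhead transcription factor gene Foxo3, and the WT library from wild-type cells that had the same M-CSF and RANKL treatment. Each group was 1 poly-A RNA library, so no value has a replicate error and every difference describes these 2 libraries. The labels do not give the deleted exons, the cells in which the gene was lost, the age or sex of the mice, or how many mice gave marrow.

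A class II molecule is a pair of chains that is assembled in the endoplasmic reticulum on the invariant chain, a chaperone that fills the peptide groove and directs the complex to endosomes. There proteases trim the invariant chain to a short remnant, and the H2-DM dimer exchanges that remnant for antigen peptides. Transcription of these genes depends on the coactivator CIITA, which does not bind DNA itself. It is recruited by a complex of RFX, CREB and NF-Y proteins that sits on the neighbouring X and Y boxes of class II promoters. Macrophages make CIITA at a low level until interferon-gamma induces it.

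The promoter letters were looked at first because X and Y boxes are the feature through which these genes share a regulator. RefSeq promoter windows, from 250 bases before to 50 bases after the transcript start on GRCm38.p6, were matched by symbol for 6 of the 9 genes. The letters searched on both strands were ATTGG for the Y box and, for the X box, AG, any 2 bases, AC, any 2 bases and ATG in a row. A shorter X core, AACNGATG, which can overlap the longer one, was added after the windows had been seen. In the sequences below, capitals mark these letters on either strand. The windows are chr17:34305617-34305916 on the plus strand for H2-Eb1, chr17:34152941-34153240 on the plus strand for H2-DMb1, chr17:34144999-34145298 on the plus strand for H2-DMb2 and chr17:34287774-34288073 on the minus strand for H2-Aa. They are shown because H2-Eb1 and H2-Aa encode chains that present peptide, while H2-DMb1 and H2-DMb2 are neighbouring copies with very different levels.
H2-Eb1: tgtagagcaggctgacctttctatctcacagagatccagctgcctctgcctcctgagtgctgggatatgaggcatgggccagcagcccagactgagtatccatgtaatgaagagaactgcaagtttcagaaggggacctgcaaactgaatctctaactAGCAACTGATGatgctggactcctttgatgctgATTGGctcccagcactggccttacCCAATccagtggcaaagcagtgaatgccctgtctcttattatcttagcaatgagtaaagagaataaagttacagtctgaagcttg
H2-DMb1: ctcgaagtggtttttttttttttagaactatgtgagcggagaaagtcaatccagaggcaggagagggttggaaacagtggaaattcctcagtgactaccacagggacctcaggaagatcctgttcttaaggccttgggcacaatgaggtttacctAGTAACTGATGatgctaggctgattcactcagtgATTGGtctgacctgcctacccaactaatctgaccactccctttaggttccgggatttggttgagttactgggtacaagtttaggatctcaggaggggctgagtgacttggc
H2-DMb2: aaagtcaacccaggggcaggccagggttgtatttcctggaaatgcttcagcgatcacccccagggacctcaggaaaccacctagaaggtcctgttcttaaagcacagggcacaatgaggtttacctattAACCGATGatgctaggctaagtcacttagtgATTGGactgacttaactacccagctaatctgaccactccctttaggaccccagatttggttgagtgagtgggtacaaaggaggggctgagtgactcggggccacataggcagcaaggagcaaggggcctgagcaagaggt
H2-Aa: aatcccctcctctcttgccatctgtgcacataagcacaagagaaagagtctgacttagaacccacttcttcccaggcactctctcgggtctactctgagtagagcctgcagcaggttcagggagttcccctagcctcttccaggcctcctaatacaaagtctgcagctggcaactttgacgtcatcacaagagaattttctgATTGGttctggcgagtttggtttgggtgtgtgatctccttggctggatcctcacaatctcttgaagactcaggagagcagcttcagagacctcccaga

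Y box letters were present in 5 of the 6 genes, or 5 of their 7 windows, against 37.4% of all 32851 windows. The longer X box letters were present in H2-DMb1 and H2-Eb1, 2 of the 7 windows, against 3.09% of all windows. The shorter core was found in H2-DMb2 as well, 3 of 6 genes and 3 of 7 windows, against 2.32% of all windows. As that core was chosen with these windows in view, the share does not measure enrichment. In each of these 3 promoters the Y box letters lay downstream on the same strand. Their start was 30 bases from that of the shorter core in H2-Eb1 and 31 bases in both H2-DMb1 and H2-DMb2. A range of 28 to 33 bases was set from these sequences, so these 3 promoters had to meet it. It was met by 5 of the 32851 windows. These were the windows of H2-Eb1, H2-DMb1, H2-DMb2, the class II gene H2-Eb2 and BC051142, and all 5 genes lie in the class II region of chromosome 17. H2-Aa had Y box letters and neither form of the X box letters, and the window of Ifi30 held none of the letters. H2-DMa had 2 windows, and only the downstream one held Y box letters. Such matches describe letters in a window and are not measured binding sites. An exact search also misses boxes with other letters, so a window without a match, such as that of H2-Aa for the X box, may still hold one.

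The deposited values were taken to be FPKM, in which read counts are divided by transcript length and by library size, so levels of different genes in a library can be compared. Ifi30, Cd74 and H2-Aa stood highest among the 9 genes in both libraries, and Ciita and H2-DMb2 lowest. The order of all 9 genes by level was the same in both. Together the 9 genes held 0.343% of all FPKM in the Foxo3 KO library and 0.302% in the WT library, and Ifi30 and Cd74 made up 87.6% and 87.4% of that sum in the Foxo3 KO and WT libraries.

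**Figure D1:**
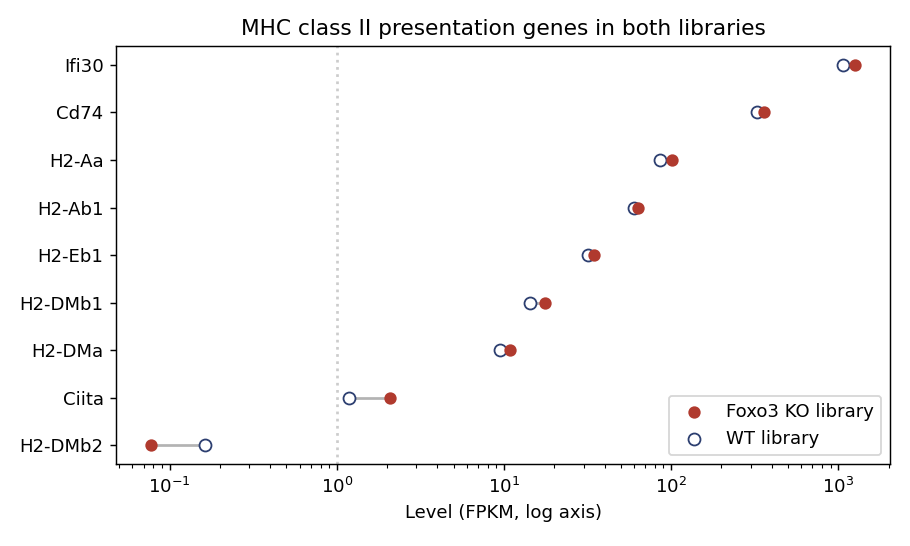
Level of each of the 9 genes (FPKM, log axis) in the Foxo3 KO library (filled) and the WT library (open), with the dotted line at 1 FPKM. The filled point lies to the right for every gene except H2-DMb2, which is under 1 FPKM in both libraries, and the widest gap above that line is that of Ciita, at 2.09 FPKM in the Foxo3 KO and 1.18 FPKM in the WT library.

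Differences between the libraries are given as a log2 ratio: 1 FPKM was added to each value, and the log2 of the WT value was taken from that of the Foxo3 KO value. On this scale the differences of weakly expressed genes come out too small. Genes were counted as measured at 1 FPKM or more in either library; 10003 genes met this, and 8 of the 9 members, all but H2-DMb2. All 8 passed the minimum in both libraries taken singly. All 8 were higher in the Foxo3 KO library, where 57.6% of all measured genes were higher, and 0 were lower, against 42.4%. Their median log2 ratio was 0.21, against 0.03 for all measured genes. None differed by 2-fold in either direction, and neither did most of the transcriptome: 0.120% of measured genes were at least 2-fold higher and 0.200% at least 2-fold lower. At 1.2-fold or more, 2 of the 8 were higher, Ciita and H2-DMb1, against 4.93% of measured genes.

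Those shares depend on the kind of gene. Among genes at 10 FPKM or more in 1 library 61.7% were higher in the Foxo3 KO library, and among those that also have a transcript under 2000 bases the share was 72.1%. Of the 7 measured members other than Ciita, all reached 10 FPKM in 1 library. All of these but H2-DMa, at 2005 bases, had a transcript under 2000 bases, from 981 for Ifi30 to 1669 for H2-Eb1. For them 72.1% is thus a closer background than the 57.6% of all measured genes. The part that transcript length and level have in the members' direction was not tested.

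**Figure D2:**
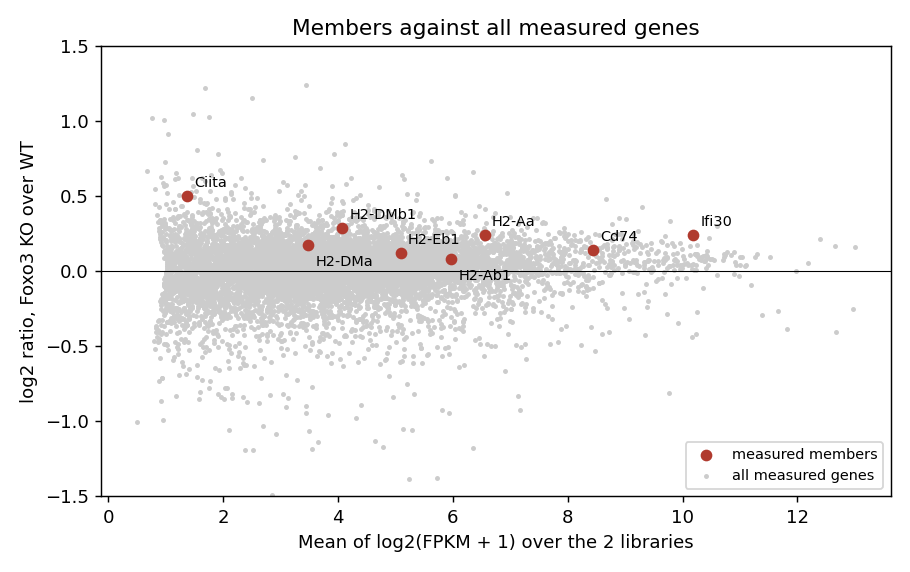
The log2 ratio of every measured gene (grey) against its mean log2(FPKM + 1) over the 2 libraries, with the 8 measured members in red. All 8 lie above 0 and below 2-fold (a log2 ratio of 1), with Ciita farthest from 0, and 8 genes beyond the vertical range are not drawn.

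Ciita, the transactivator, differed most. It is on chromosome 16 from 10480059 to 10528418, a gene with several alternative promoters that gene-level values do not separate. It stood at 2.09 FPKM in the Foxo3 KO library and 1.18 FPKM in the WT library, 1.77 times as high, with a log2 ratio of 0.50. Among all measured genes it ranked 69th of 10003 from the highest ratio down. Low genes scatter more widely: of the 2130 genes whose higher value lay between 1 and 5 FPKM, 1.60% had a log2 ratio as high as that of Ciita, and 8.64% were at least 1.2-fold higher. The exons of Ciita overlap those of Dexi, at 5.97 FPKM in the Foxo3 KO and 4.77 FPKM in the WT library (log2 ratio 0.27). No source used here says whether strand was used in counting, so the reads of the overlap may not be separable. Its log2 ratio was 0.71 when 0.25 FPKM was added to each value in place of 1 FPKM, and 0.20 when 5 FPKM was added.

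The 3 genes of peptide-presenting chains lie side by side on chromosome 17. H2-Aa, the alpha chain of the I-A molecule (34282744 to 34287823), stood at 101.1 FPKM in the Foxo3 KO library and 85.5 FPKM in the WT library, a log2 ratio of 0.24. H2-Ab1, the beta chain that pairs with it (34257689 to 34269419), stood at 63.5 FPKM in the Foxo3 KO and 59.9 FPKM in the WT library, and its log2 ratio of 0.08 was the smallest of the 8. H2-Eb1, the beta chain of the I-E molecule (34305867 to 34316674), stood at 34.6 FPKM in the Foxo3 KO and 31.7 FPKM in the WT library, a log2 ratio of 0.12. All 3 were thus higher in the Foxo3 KO library by 18.2% of the WT level for H2-Aa, 6.00% for H2-Ab1 and 9.23% for H2-Eb1. C57BL/6 mice are known to lack a working I-E alpha chain gene, and that pseudogene, H2-Ea-ps, was listed at 0 in both libraries. The level of H2-Aa was 1.59 times that of H2-Ab1 in the Foxo3 KO library and 1.43 times in the WT library.

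Cd74, the invariant chain (chromosome 18, 60803848 to 60812652), stood at 362 FPKM in the Foxo3 KO library and 329 FPKM in the WT library, a log2 ratio of 0.14. It was more abundant than the 3 presenting chains added together, by 1.82 times in the Foxo3 KO and 1.86 times in the WT library. The proportion of chaperone to chains was therefore nearly alike in the libraries, at a log2 difference of -0.03. Relative to Ciita, in contrast, Cd74 stood 173 times as high in the Foxo3 KO library and 279 times in the WT library.

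H2-DM is the dimer that removes the invariant chain remnant and edits the bound peptides. Its alpha chain gene H2-DMa (chromosome 17, 34119541 to 34139101) stood at 10.8 FPKM in the Foxo3 KO library and 9.49 FPKM in the WT library, a log2 ratio of 0.18. Exons of H2-DMa overlap those of the more abundant Brd2, at 89.6 FPKM in the Foxo3 KO and 85.0 FPKM in the WT library. The beta chain gene H2-DMb1 (34153072 to 34160230) stood at 17.6 FPKM in the Foxo3 KO library and 14.3 FPKM in the WT library, and its log2 ratio of 0.29 was second to that of Ciita.

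H2-DMb2, the other beta chain copy (34143307 to 34151555), was near the floor of the data, at 0.0778 FPKM in the Foxo3 KO library and 0.164 FPKM in the WT library. H2-DMb1 was 226 times as abundant as H2-DMb2 in the Foxo3 KO library and 87.0 times in the WT library. For genes with a transcript of 1000 to 2000 bases, 2% of the values above 0 lay below 0.0169 FPKM in the Foxo3 KO and 0.0244 FPKM in the WT library. The values of H2-DMb2 are therefore a few times the lowest that were recorded, and no direction is read from them. The copies share sequence: 27.2% of the 50-base windows of the H2-DMb1 coding transcript and 21.2% of those of H2-DMb2 occur in both, so reads there could be assigned to either. Summing the pair left the median of the measured members at 0.21. That was bound to be so, because H2-DMb2 adds so little to H2-DMb1, and it does not show how reads were assigned. In the promoter windows printed above, the aligned parts of H2-DMb1 and H2-DMb2 were identical at 77.4% of 270 columns, and both hold the shorter X core and the Y box letters.

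Ifi30 encodes GILT, the thiol reductase that opens disulphide bonds of antigens in lysosomes. The gene (chromosome 8, 70762774 to 70766663) was among the most abundant in the data, 53rd of all listed genes in the Foxo3 KO library and 71st in the WT library. It stood at 1265 FPKM in the Foxo3 KO library and 1069 FPKM in the WT library, a log2 ratio of 0.24. GENCODE places 6330537M06Rik over its exons, so reads may have been assigned to either gene.

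The proteases that prepare the groove and the antigens lay on the other side. In the list of invariant chain and antigen proteases 7 of 8 measured genes were lower in the Foxo3 KO library. The share of all measured genes that were lower was 42.4%, and the median log2 ratio of the list was -0.29. By 1.2-fold or more 5 of the 8 were lower, against 6.23% of measured genes. Ctss, cathepsin S, which makes the last cuts in the invariant chain, stood at 769 FPKM in the Foxo3 KO library and 936 FPKM in the WT library (log2 ratio -0.28). Its level was 2.12 times that of Cd74 in the Foxo3 KO and 2.85 times in the WT library. Lgmn, the asparagine endopeptidase legumain, stood at 252 FPKM in the Foxo3 KO and 355 FPKM in the WT library (-0.49). Ctsl, cathepsin L, stood at 220 FPKM in the Foxo3 KO and 284 FPKM in the WT library (-0.37), and Ctsb, cathepsin B, which overlaps Fdft1, had a log2 ratio of -0.42. The 1 gene on the higher side was Cst3, cystatin C, an inhibitor of these proteases, at 1915 FPKM in the Foxo3 KO and 1781 FPKM in the WT library. Macrophage markers, 14 in all, were on the lower side alongside them in 13 cases, against 42.4% of all measured genes. Their median log2 ratio was -0.29, at a summed level of 8559 FPKM in the Foxo3 KO and 10640 FPKM in the WT library. Most of both sums was the single marker Lyz2, at 5674 FPKM in the Foxo3 KO and 7501 FPKM in the WT library. The part of the macrophage markers in the protease values was not tested. In bulk RNA, fewer cells of a type and less RNA per cell cannot be told apart.

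**Figure D3:**
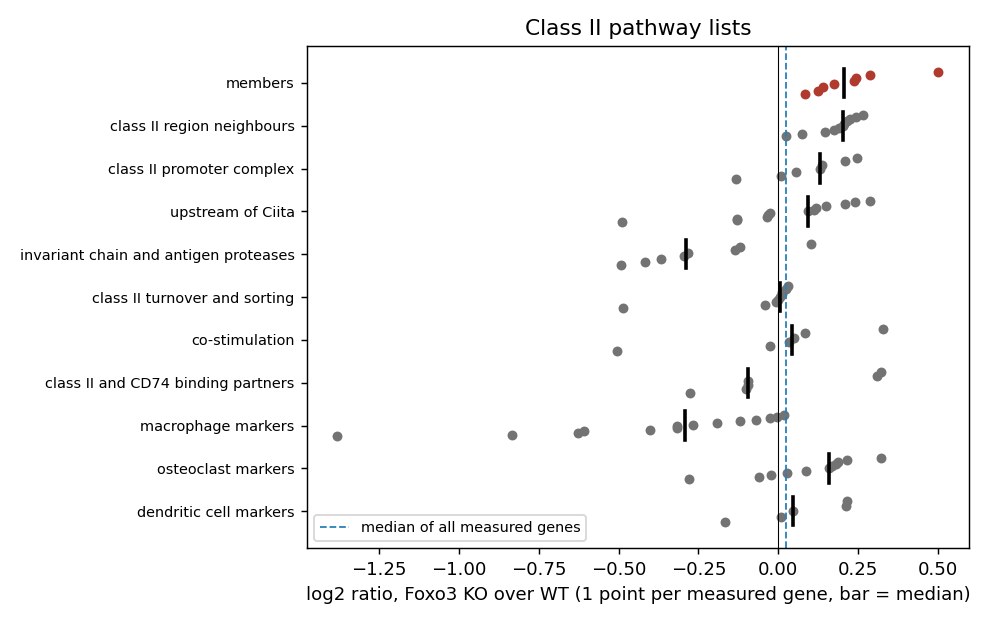
Log2 ratios of the measured genes in the members and in lists of related genes (1 point per gene, black bar for the median, dashed blue line for the median of all measured genes). The members and the class II region neighbours have medians of 0.21 and 0.20, the promoter complex 0.13, and the proteases and macrophage markers both -0.29.

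The factors that bring CIITA to promoters were higher in 6 of 7 cases, where 57.6% of all measured genes were higher, and 5 of 7 were higher after each of 3 scalings. Their median log2 ratio of 0.13 was 0.07 when 5 FPKM was added to each value. It was 0.01 over the 3 genes at 10 FPKM or more, of which 2 were higher. The RFX subunit genes Rfx5, Rfxap and Rfxank had log2 ratios of 0.14, 0.21 and 0.13. Of the NF-Y subunits, Nfyc stood at 28.8 FPKM in the Foxo3 KO and 24.1 FPKM in the WT library (0.25) and Nfya at 29.8 FPKM in the Foxo3 KO and 29.6 FPKM in the WT library (0.01). Creb1 was the exception at -0.13. None of the 7 reached 1.2-fold in either direction.

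Genes upstream of Ciita were divided, with 7 of 13 measured genes higher and 6 lower and a median of 0.09. Of all measured genes 57.6% were higher. Irf1, a factor that acts on the interferon-responsive Ciita promoter, stood at 38.0 FPKM in the Foxo3 KO and 31.0 FPKM in the WT library (log2 ratio 0.29). The interferon-gamma receptor genes Ifngr1 and Ifngr2 had log2 ratios of -0.13 and 0.15. The myeloid factor gene Irf8 was lowest, at 20.3 FPKM in the Foxo3 KO and 29.0 FPKM in the WT library (-0.49). The gene of PU.1, listed as Sfpi1, stood at 466 FPKM in the Foxo3 KO and 403 FPKM in the WT library (0.21).

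Genes of class II sorting and turnover were divided too, with 5 of 9 measured genes higher, where 57.6% of all measured genes were higher. Their median of 0.01 turned negative under each scaling, and 3 named ubiquitin ligases (March1, March8 and March9) were not analysed here. Cd81, a tetraspanin gene, lay farthest from 0, at 35.4 FPKM in the Foxo3 KO library, 0.708 times its WT level (log2 ratio -0.49), while the next, the adaptor subunit gene Ap1m1 and the tetraspanin gene Cd82, had log2 ratios of -0.04 and 0.03. Of the co-stimulatory genes 4 of 6 measured were higher, against the same 57.6%, with a median of 0.04. Icam1, the adhesion ligand of LFA-1, stood at 74.4 FPKM in the Foxo3 KO and 59.1 FPKM in the WT library (0.33), and Cd274, the ligand of PD-1, and Cd276 had log2 ratios of 0.08 and -0.02. Cd80, named after its values were seen, stood at 2.15 FPKM in the Foxo3 KO and 3.46 FPKM in the WT library (-0.50). Of the genes whose products bind class II molecules or CD74, 2 of 6 measured were higher, against 57.6% of all measured genes. Mif, the cytokine bound by CD74, was at 487 FPKM in the Foxo3 KO and 392 FPKM in the WT library (0.31), and Cd44, its signalling partner, was at 101.2 and 122.8 FPKM in the Foxo3 KO and WT libraries (-0.28). The chemokine receptor gene Cxcr4 had a log2 ratio of -0.10.

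The remaining class II genes were nearly silent. The inhibitor of H2-DM has the subunits H2-Oa and H2-Ob, and is known chiefly from B cells. H2-Oa stood at 0.141 FPKM in the Foxo3 KO and 0.120 FPKM in the WT library, and H2-Ob at 0.0117 FPKM in the Foxo3 KO library and at 0 in the WT library. H2-Eb2, whose promoter holds the same spaced X and Y letters as that of H2-Eb1, was listed at 0 in the Foxo3 KO and at 0.0125 FPKM in the WT library. The 5 genes with those spaced letters thus ran from 0 FPKM to 34.6 FPKM in the Foxo3 KO library.

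The members on chromosome 17 lie among genes of other functions, and these too were on the higher side. Between the outermost genes of the list, from 34020792 to 34613449, 13 measured genes are no members. All 13 were higher in the Foxo3 KO library, with a median log2 ratio of 0.20 and a range of 0.01 to 0.26. Outside that stretch 62.0% of the 471 measured genes of the chromosome were higher. All 13 reached 10 FPKM in 1 library, and of all genes at that level 61.7% were higher in the Foxo3 KO library. Psmb9, an immunoproteasome subunit that overlaps Tap1, stood at 79.3 FPKM in the Foxo3 KO and 65.9 FPKM in the WT library (0.26). Tap2, of the class I peptide transporter, stood at 88.1 FPKM in the Foxo3 KO and 74.3 FPKM in the WT library (0.24). H2-Ke6, a hydroxysteroid dehydrogenase gene, stood at 34.1 FPKM in the Foxo3 KO and 29.1 FPKM in the WT library (0.22). The members in the stretch did not lie above these neighbours as a set: H2-Ab1 and H2-Eb1 had lower log2 ratios than all of Psmb9, Tap1, Psmb8 and Tap2. After centring on the median gene or scaling to equal sums, 11 of the 13 were higher.

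**Figure D4:**
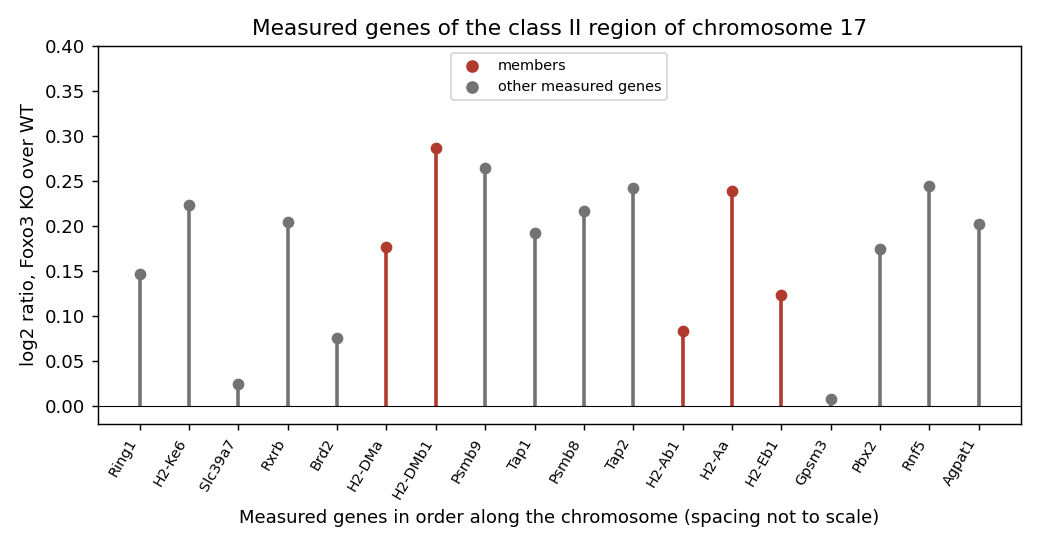
Log2 ratio of the 18 measured genes of the class II region of chromosome 17, in chromosomal order and not to scale, with members in red and other genes in grey. All 18 are above 0, from Gpsm3 (0.01) to H2-DMb1 (0.29); Gpsm3 falls below 0 under all 3 scalings and Slc39a7 under 2 of them.

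Class II genes are also a mark of dendritic cells and B cells, so their defining genes were checked beside the members. Of 14 dendritic cell markers 9 were under 1 FPKM in both libraries and Ccl17 was at 0 in both. The list summed to 42.7 FPKM in the Foxo3 KO and 45.7 FPKM in the WT library, mostly from Clec10a, at 33.2 FPKM in the Foxo3 KO and 37.4 FPKM in the WT library, a gene that macrophages also express. The measured markers were higher in 4 of 5 cases, where 57.6% of all measured genes were higher. Zbtb46 stood at 1.48 FPKM in the Foxo3 KO and 1.14 FPKM in the WT library. Itgax stood at 3.23 FPKM in the Foxo3 KO and 3.10 FPKM in the WT library. Of 12 B cell markers 10 were under 1 FPKM in both libraries, and Pax5 and Blk were at 0 in both. That list summed to 81.3 FPKM in the Foxo3 KO and 75.4 FPKM in the WT library, nearly all of it Blnk, which macrophages also express, at 79.2 FPKM in the Foxo3 KO and 73.1 FPKM in the WT library. Cd79b stood at 0.898 and 0.851 FPKM and Cd22 at 0.891 and 1.25 FPKM in the Foxo3 KO and WT libraries. All 10 T and NK cell markers found were under 1 FPKM in both libraries, at sums of 0.563 FPKM in the Foxo3 KO and 0.519 FPKM in the WT library. The most abundant, Cd3d, Cd247 and Cd2, stood at 0.159, 0.129 and 0.0515 FPKM in the Foxo3 KO and 0.190, 0.110 and 0.143 FPKM in the WT library. Neutrophil markers summed to 155.7 and 159.7 FPKM in the Foxo3 KO and WT libraries, with a median log2 ratio of -0.08, and stromal markers to 10.8 and 11.5 FPKM, with a median of -0.07. Log2 ratios were -0.07 for S100a8, 0.05 for S100a9 and -0.15 for Ngp among the neutrophil markers, and -0.04 for Col1a1, -0.18 for Col1a2 and -0.11 for Sparc among the stromal markers.

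The labelled cell type could be checked against its own markers. All 14 macrophage markers and all 11 osteoclast markers were measured. The macrophage marker Lyz2, lysozyme, was the most abundant of its list, at 5674 FPKM in the Foxo3 KO and 7501 FPKM in the WT library (log2 ratio -0.40). Cd68 stood at 1546 and 1573 FPKM in the Foxo3 KO and WT libraries (-0.02), and Csf1r, the M-CSF receptor gene, at 695 and 697 FPKM (-0.01). Both lay nearer to 0 than the list as a whole, which had a median of -0.29 and reached -1.38. That list was lower in 13 of 14 cases, against 42.4% of all measured genes. Of the osteoclast markers, the acid phosphatase gene Acp5 stood at 8636 FPKM in the Foxo3 KO and 7737 FPKM in the WT library (0.16), the protease gene Ctsk, cathepsin K, at 6862 and 6106 FPKM (0.17) and the matrix protease gene Mmp9 at 5815 and 5009 FPKM (0.22). Osteoclast markers were higher in 8 of 11 cases, at a median log2 ratio of 0.16. The share higher was 57.6% of all measured genes and 61.7% of genes at 10 FPKM or more in 1 library. Foxo3 itself stood at 0.548 FPKM in the Foxo3 KO library and 10.3 FPKM in the WT library. The files hold no read totals. Among 1661 genes with values above 0 that stayed below 0.15 FPKM in each library, the commonest Foxo3 KO to WT ratio put the depth of the Foxo3 KO library at 1.40 times that of the WT library.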

How the data were processed

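The authors deposited 1 table per library with 1 value for each of 16614 genes. The deposited values were read as FPKM from the values themselves: they are not whole, and the lowest scale inversely with transcript length. A constant of 0.000001 that appears in every value was subtracted. Per the submitters' processing notes, TopHat, edgeR and the mm10 build were used, without versions or roles; no source used here gives the quantifier or strand use. Log2 ratios used a pseudocount of 1 FPKM and a minimum of 1 FPKM in 1 library. With 1 library per group no test or interval was possible, so a 2-fold rule of size was used, and counts were set beside those of all measured genes. The members and gene lists were chosen with earlier results of these data known. All 9 members were named, with Foxo3, 3 genes of each related list, those farthest from 0 in log2 ratio among genes at 10 FPKM or more, and the 3 most abundant of each marker list. Rfx5, Rfxap, Rfxank, Ifngr1, Ifngr2, Ctss, Cst3, the silent class II genes and the genes of the region were named besides, after their values had been seen. Older symbols were matched through RefSeq synonyms. Coordinates, transcripts and overlaps without regard to strand came from GENCODE M21 (mm10), and promoters from RefSeq. Steps were tested on simulated data. Python 3.11.15, numpy 2.4.6, pandas 2.3.3, biopython 1.88 and matplotlib 3.10.9 were used.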

Additional observations from a re-analysis of the deposited data

How the results depend on the processing

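The 8 measured members were higher in the Foxo3 KO library under every scaling and both other pseudocounts. The scalings were trimmed-mean scaling (which divides the Foxo3 KO values by 1.01), centring on the median gene and scaling to equal sums (1.02). Another pseudocount cannot change the direction of a gene. Each scaling shifted the ratios by less than the smallest member difference, 1.06-fold for H2-Ab1, so this count could not have changed. The scalings brought the share of all measured genes that were higher to 51.8% (trimmed mean) and 50.3% (equal sums). With no minimum 1 member, H2-DMb2, was lower, and at 1.2-fold 2 members were past the size rule; both follow from the construction of these settings. The median of the members ran from 0.167 with a pseudocount of 5 to 0.224 as a mean, and was 0.176 with Ciita left out, a choice made after the data were seen. Of 45 recomputed log2 ratios of single members, H2-DMb2 included, 43 moved by less than the spread of the 500 measured genes nearest in level. Both others were those of Ciita with another pseudocount. For H2-DMb2 those 500 genes all lie above its level, so the comparison says little there. Its log2 ratio went from -0.111 to -0.337 when 0.25 FPKM was added in place of 1 FPKM. The sorting and turnover list turned to medians of -0.0149, -0.0189 and -0.0202 under the trimmed-mean, median and equal-sum scalings, and the co-stimulation list to -0.0243 with no minimum. Promoter windows cut to the upstream 250 bases held the same counts of members with X and Y box letters. They had to, because every match in a member window lies upstream of the transcript start. No paired analysis was possible because there is only 1 library in each group, and for the same reason no replicate could be left out. Depth limits H2-DMb2 and the other class II genes near 0 most.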
